A study of Homo sapiens with 6 samples.

Results

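The 10 genes described here are feedback regulators and transcriptional targets of the kinase ERK: the phosphatases DUSP4, DUSP5 and DUSP6, the Sprouty genes SPRY2 and SPRY4, the ETS factors ETV4 and ETV5, and the further targets FOSL1, PHLDA1 and HMGA2. They were taken as every probe set (a group of array probes read as 1 value) that carries 1 of these symbols and no other, which gave 32 of 54675 probe sets and 10 of 19775 genes. The samples were RT-112 cells, an established human bladder cancer line, transiently transfected at 50 nM with siPPP2R2A_1 (siRNA 1), with siPPP2R2A_2 (siRNA 2) or with scramble siRNA, 2 arrays each and 6 in all. All cells were transfected a second time after 24 h and harvested 24 h later. The arrays are technical duplicates of 1 cell line, A and B, so p-values measure only the spread between these arrays, and their number limits the precision. Values are linear signal in arbitrary units as deposited.

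In growing epithelial cells, receptor tyrosine kinases activate ERK through RAS, RAF and MEK, and active ERK raises the transcription of its own inhibitors. The dual-specificity phosphatases remove phosphate from ERK itself, Sprouty proteins dampen the signal upstream at the level of RAS and RAF, and ETV4 and ETV5 carry the signal on to further genes. The transcripts of these genes are therefore widely used as a readout of ERK output. PPP2R2A encodes B55 alpha, a regulatory subunit that directs protein phosphatase 2A to its substrates, and RT-112 cells carry a fusion of FGFR3 that signals through this cascade.

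PPP2R2A, the targeted gene, read 336 and 397 with siRNA 1 and 510.0 and 533 with siRNA 2, against 1381 and 1589 with scramble. Its level on its brightest probe set, 202313_at, was 24.7% of scramble with siRNA 1 and 35.1% with siRNA 2 (limma adjusted p = 0.0403 and 0.0461, n = 2 per group). On 228013_at it was 20.6% and 24.6%. On 236492_at, also above the array median on all 6 arrays, it was 97.7% and 79.6%. Leaving out 1 array at a time gave log2 changes on 202313_at of -2.14 to -1.90 with siRNA 1 and -1.61 to -1.40 with siRNA 2. The arrays of the other siRNA do not enter these changes. Of the epithelial markers fixed as a check of the label, 7 of 7 passed the filter on low signal, and of the urothelial markers 5 of 6, with UPK3A below it. The summed signal of the epithelial markers lay between 105601 and 112354.5 with siRNA 2 and between 123398.1 and 128343.8 on the other arrays. That of the urothelial markers lay between 21384 and 21491.4 with siRNA 1, between 20081.7 and 20766.2 with siRNA 2, and between 24169.6 and 24993.4 with scramble. Of the leukocyte markers 1 of 3 passed the filter, with PTPRC and CD14 below it and a summed signal of 19.9 to 140.9 over all arrays, of the fibroblast markers 1 of 3, and of the endothelial markers 2 of 3. ACTB signal at the 3′ end over the 5′ end is higher in degraded or incompletely copied RNA. It was 6.52 and 7.82 with siRNA 1, 7.47 and 12.4 with siRNA 2, and 5.43 and 5.94 with scramble. The same ratio for GAPDH was 1.001 and 1.02 with siRNA 1, 1.002 and 0.943 with siRNA 2, and 1.004 and 1.004 with scramble. The 2 ratios thus did not move alike, and their part in the results below was not tested.

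Each gene was represented by its brightest probe set, all 10 passed the filter (signal above the array's median on at least 2 arrays), and changes are differences of log2(signal + 1). A gene was called at a limma adjusted p under 0.05 over all 12735 genes tested and a change of at least 1.5-fold. By that rule 1 of 10 genes was called with siRNA 1, HMGA2, which was higher, against 0.393% of all genes in either direction (0.212% higher, 0.181% lower). With siRNA 2 limma called 0 of 10, against 0.597% of all genes (0.44% higher, 0.157% lower). Between the siRNAs limma called 0 of 10, against 0.212% (0.0864% higher and 0.126% lower with siRNA 1). At an unadjusted p under 0.05 the genes numbered 3 with siRNA 1, 4 with siRNA 2 and 4 between the siRNAs, against 16.2%, 20.8% and 18.7% of all genes. With an intensity trend in limma the calls were 1, 0 and 1, against 2.35%, 3.71% and 2.84% of all genes. The genes were chosen with earlier results of these data known. No count of them, here or below, is therefore read as an excess over all genes.

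**Figure D1:**
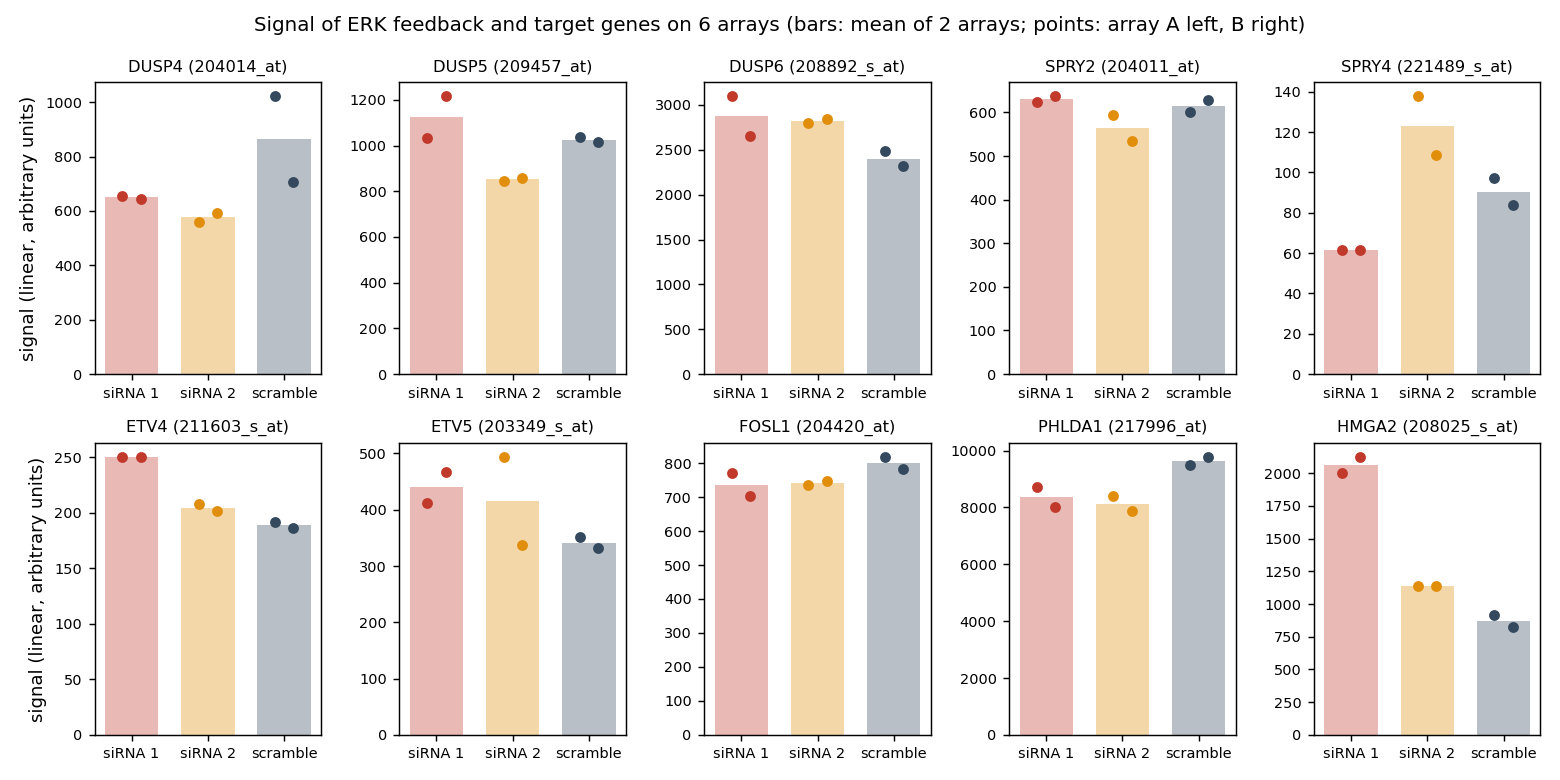
Signal (linear, arbitrary units) of the brightest probe set of each of the 10 genes on the 6 arrays, with siRNA 1, siRNA 2 and scramble from left to right; bars are means of 2 arrays and points are single arrays, A left and B right. HMGA2 stands at 2005 and 2124 with siRNA 1, above all other arrays, and SPRY4 is lower than scramble with siRNA 1 and higher with siRNA 2.

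HMGA2, an architectural chromatin protein that is high in embryonic and many tumour cells, had the largest change against scramble of the 10 genes. On probe set 208025_s_at it read 2005 and 2124 with siRNA 1, 1135 and 1140.3 with siRNA 2, and 912 and 822 with scramble. The groups did not overlap, and they stood in the order siRNA 1, siRNA 2, scramble. HMGA2 rose 2.38-fold with siRNA 1 (log2 change 1.25, 95% interval 1.01 to 1.49, limma adjusted p = 0.0430). With siRNA 2 it stood 1.31-fold above scramble (log2 change 0.39, 0.15 to 0.63, adjusted p = 0.118), which was not called. The difference between the siRNAs was 0.86 on the log2 scale (0.62 to 1.10, adjusted p = 0.0617), not called by the main rule, although an intensity trend in limma called it (adjusted p = 0.000733). With the mean of its probe sets that difference was 0.05 (adjusted p = 0.966), and on single-transcript probe sets 0.26 (adjusted p = 0.736). The mean of both siRNAs was called (log2 change 0.82, adjusted p = 0.0460).

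The HMGA2 result rests on 1 probe set. Of its 9 probe sets, 4 passed the filter, and only 208025_s_at and 1561633_at lay above the array median on all 6 arrays. Probe set 1561633_at read 172 and 209 with siRNA 1, 134 and 188 with siRNA 2, and 144 and 255 with scramble, so its groups overlapped (log2 change -0.01 with siRNA 1). The other tested ones, 1559891_at and 1567224_at, read between 6.65 and 162 and had log2 changes of -0.34 and -0.78 with siRNA 1. On 1559891_at, at the background level, the signals were 90.2 and 36.2 with siRNA 1, 44.6 and 6.65 with siRNA 2, and 59.6 and 88.9 with scramble, with a log2 change of -1.98 with siRNA 2 and the lowest value on 1 siRNA 2 array. The suffix s_at, which the brightest probe sets of HMGA2, SPRY4, ETV4, ETV5 and DUSP6 carry, marks probes that can match more than 1 transcript. In the fit across all 29374 probe sets tested, limma called 0 with siRNA 1 (13% at an unadjusted p under 0.05), and 208025_s_at had an adjusted p = 0.0966 there. Without each of the 6 arrays in turn HMGA2 kept a log2 change of 1.18 to 1.33 with siRNA 1. Leaving out an siRNA 2 array cannot move this change. These fits leave 1 array in a group, so no call is drawn from them.

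Among the inhibitors that act on ERK itself, the cytoplasmic, ERK-selective phosphatase DUSP6 was above scramble with both siRNAs. On its brightest probe set it read 3097 and 2655 with siRNA 1, 2797 and 2848 with siRNA 2, and 2487 and 2316 with scramble. All 4 knockdown arrays lay above both scramble arrays, and the siRNAs overlapped. The log2 changes were 0.26 (95% interval -0.03 to 0.54, limma adjusted p = 0.343) and 0.23 (-0.05 to 0.52, adjusted p = 0.313), neither called. Its other probe sets gave 0.22 and 0.17 with siRNA 1 and 0.08 and 0.10 with siRNA 2, all with overlapping arrays except 208891_at with siRNA 1. The difference between the siRNAs was 0.02 (-0.26 to 0.31) on the brightest probe set, a range that holds no 1.5-fold difference. On 208893_s_at it was 0.07 (-0.59 to 0.72), a range that does.

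DUSP4, a nuclear phosphatase of ERK and JNK, was on the other side of scramble. Its brightest probe set, 204014_at, read 654 and 645 with siRNA 1, 561 and 592 with siRNA 2, and 1022 and 705 with scramble. The scramble duplicates differed 1.45-fold, more than either knockdown mean differed from scramble B. The log2 changes were -0.38 (-0.88 to 0.11) and -0.56 (-1.06 to -0.06), with limma adjusted p = 0.411 and 0.204. Without scramble A they were -0.12 and -0.29. The probe sets 204015_s_at and 226034_at gave -0.26 and 0.08 with siRNA 1 and -0.10 and -0.11 with siRNA 2.

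DUSP5, a nuclear ERK-selective phosphatase with 1 probe set, separated the siRNAs from each other. It read 1033 and 1216 with siRNA 1, 846 and 858 with siRNA 2, and 1036 and 1014 with scramble. The siRNA 1 arrays overlapped scramble, and the siRNA 2 arrays were lower than both groups. The log2 difference between the siRNAs was 0.40 (95% interval 0.12 to 0.67, limma adjusted p = 0.172), and the changes against scramble were 0.13 and -0.27 (adjusted p = 0.610 and 0.252), none called.

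SPRY4, an inhibitor of receptor signalling to RAS and RAF, was the 1 member whose arrays lay on opposite sides of scramble with the siRNAs. It read 61.6 and 61.4 with siRNA 1 and 138 and 108 with siRNA 2, against 97.0 and 84.0 with scramble. The 3 groups did not overlap. The log2 changes were -0.55 (-0.94 to -0.16, limma adjusted p = 0.211) and 0.43 (0.04 to 0.82, adjusted p = 0.207), and the difference between the siRNAs was -0.98 (-1.37 to -0.59, adjusted p = 0.0840), none called. Both siRNA 1 values lay below the array medians of 70.5 and 76.1, so the gene passed the filter through the siRNA 2 and scramble arrays, and the sizes rest on the background level. The same pattern, siRNA 1 below and siRNA 2 above scramble without overlap, was shown by 402 of 12735 genes.

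SPRY2, the related inhibitor, differed little. It read 625 and 637 with siRNA 1, 594 and 535 with siRNA 2, and 600.35 and 629 with scramble. The log2 change was 0.04 with siRNA 1 (95% interval -0.20 to 0.27, limma adjusted p = 0.876) and -0.13 with siRNA 2 (-0.36 to 0.11, adjusted p = 0.501). The siRNA 2 arrays lay below both other groups, and the siRNA 1 arrays overlapped scramble. Both intervals, which cover only the spread between duplicate arrays, hold no 1.5-fold change.

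RefSeq's promoter table (GRCh38.p14) held windows for 4 of the 10 genes, SPRY2, SPRY4, DUSP6 and PHLDA1. The 250 bases before the annotated start are shown for 3 genes picked for their different patterns against scramble on their brightest probe sets. These were opposite with the siRNAs (SPRY4), above with both (DUSP6) and below with both (PHLDA1). Any link between motifs and patterns was not tested. Capitals mark the motifs searched on both strands that were found, the GC box GGGCGG and the ETS sequence CCGGAA. The shorter GGAA, which all 3 windows hold, was not searched or marked. The other ETS sequence searched, CAGGAA, the AP-1 motif TGANTCA and the CRE motif TGACGTCA were not found in these 3 windows. Of 35116 promoter windows of this length, 42.6% hold the GC box, 14.5% CCGGAA, 24.1% CAGGAA, 6.57% the AP-1 motif and 1.65% the CRE motif. The SPRY4 window is chr5:142324248-142324497, the DUSP6 window chr12:89352502-89352751 and the PHLDA1 window chr12:76031777-76032026, all on the minus strand and written 5′ to 3′.
SPRY4: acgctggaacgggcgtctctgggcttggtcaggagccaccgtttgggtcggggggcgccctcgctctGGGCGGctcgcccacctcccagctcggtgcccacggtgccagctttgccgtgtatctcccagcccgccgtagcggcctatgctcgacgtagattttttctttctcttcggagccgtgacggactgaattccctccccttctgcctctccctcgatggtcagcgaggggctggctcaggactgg
DUSP6: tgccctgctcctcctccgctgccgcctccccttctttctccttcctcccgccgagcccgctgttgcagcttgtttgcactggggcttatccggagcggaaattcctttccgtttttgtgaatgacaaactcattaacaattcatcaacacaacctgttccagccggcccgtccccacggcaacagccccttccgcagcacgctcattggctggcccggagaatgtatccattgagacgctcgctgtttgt
PHLDA1: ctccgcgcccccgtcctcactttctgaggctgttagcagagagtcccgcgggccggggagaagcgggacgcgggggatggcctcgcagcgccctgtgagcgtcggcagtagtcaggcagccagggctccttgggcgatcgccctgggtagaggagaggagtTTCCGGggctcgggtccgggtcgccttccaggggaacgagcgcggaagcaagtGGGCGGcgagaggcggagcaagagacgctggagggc
SPRY4 held 1 GC box, PHLDA1 1 GC box and 1 CCGGAA, and DUSP6 0 of the motifs searched, with a GC content of 65.6%, 70.4% and 57.2%. Of the SPRY2 windows, not shown, chr13:80341127-80341376 held 1 CCGGAA and 2 GC boxes. The SPRY2 window chr13:80339660-80339909 held 1 CAGGAA, and chr13:80340109-80340358 held 0 of the motifs searched.

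The ETS factors ETV4 and ETV5, transcriptional effectors of FGF and ERK signalling, stood above scramble with siRNA 1. ETV4 read 250.4 and 249.9 with siRNA 1, 208 and 201 with siRNA 2, and 192 and 186 with scramble. The 3 groups did not overlap, and their duplicates differed by at most 1.04-fold. The log2 change was 0.40 with siRNA 1 (95% interval 0.21 to 0.60, limma adjusted p = 0.124) and 0.12 with siRNA 2 (-0.08 to 0.31, adjusted p = 0.458), and the siRNAs differed by 0.29 (0.09 to 0.48, adjusted p = 0.168), none called. Its second probe set gave 0.16 and -0.06.

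ETV5 read 413 and 467 with siRNA 1, 494 and 338 with siRNA 2, and 351 and 332 with scramble. The siRNA 1 arrays lay above scramble, while the siRNA 2 duplicates differed 1.46-fold and overlapped it. The log2 changes were 0.36 (-0.17 to 0.89) and 0.26 (-0.27 to 0.79), with limma adjusted p = 0.461 and 0.534. Without siRNA 2 array A the change with siRNA 2 was -0.01. Of its 5 probe sets 3 passed the filter, and all 3 lay above 0 with both siRNAs, by 0.36 to 0.66 with siRNA 1 and by 0.26 to 0.53 for siRNA 2, with 0 called by limma and 1 at an unadjusted p under 0.05, 230102_at with siRNA 1.

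FOSL1, which encodes the AP-1 subunit FRA1 that ERK stabilises, was slightly below scramble with both siRNAs. It read 769.8 and 702 with siRNA 1, 735 and 747 with siRNA 2, and 818 and 782.5 with scramble. No knockdown array reached the scramble arrays. The log2 changes were -0.12 (95% interval -0.35 to 0.11, limma adjusted p = 0.559) and -0.11 (-0.34 to 0.12, adjusted p = 0.540). Both intervals, which cover only the spread between duplicate arrays, hold no 1.5-fold change. The siRNAs differed by -0.01 (-0.24 to 0.22).

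PHLDA1, a pleckstrin homology-like protein induced by growth factors, was also below scramble on its brightest probe set, 217996_at, with 8715 and 8009.5 with siRNA 1, 8388 and 7871 with siRNA 2, and 9487 and 9775 with scramble. The siRNAs overlapped each other and neither overlapped scramble. The log2 changes were -0.20 (-0.44 to 0.03, limma adjusted p = 0.355) and -0.24 (-0.48 to -0.01, adjusted p = 0.223). Its 6 probe sets did not move alike. On 217997_at the signals were 1882 and 1852 with siRNA 1, 2069.5 and 1705.5 with siRNA 2, and 2503 and 2353 with scramble (log2 changes -0.38 and -0.37), and 217998_at gave -0.24 and -0.38. The dimmer 217999_s_at gave -0.12 and -0.13 and 218000_s_at -0.61 and -0.30, with siRNA 2 duplicates of 362 and 169 on 218000_s_at. On 225842_at, also bright, the siRNA 1 arrays read 8192 and 7970.0, above both scramble arrays at 7252 and 7374 (log2 change 0.14), and siRNA 2 stood at 0.02.

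**Figure D2:**
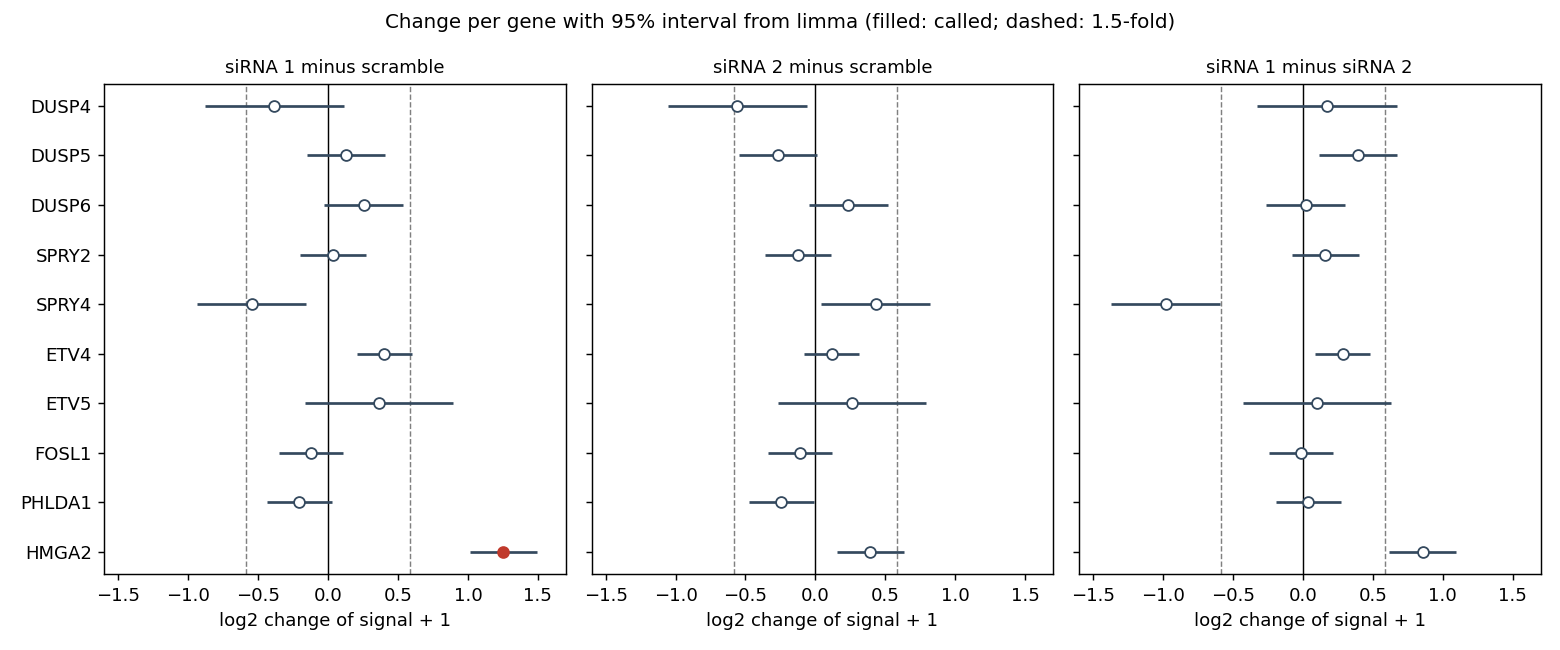
Log2 change of signal + 1 for each gene (rows) with siRNA 1 against scramble, siRNA 2 against scramble and siRNA 1 against siRNA 2; lines are 95% intervals from limma, dashed lines mark 1.5-fold and a filled point is called. HMGA2 with siRNA 1 (1.25) is the 1 filled point, and SPRY4 has the most negative difference between the siRNAs (-0.98).

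Set side by side, the genes did not share a direction. With siRNA 1 the median log2 change was 0.08, with 6 of 10 above 0, against a median of 0.01 over all genes tested. With siRNA 2 it was 0.00, with 5 of 10 above 0, against 0.02 over all genes. The arrays of 8 genes did not overlap scramble with siRNA 1 (4 above, 4 below) and those of 9 did not with siRNA 2 (4 above, 5 below), against 49.4% and 52.4% of all genes (26.7% above and 22.7% below with siRNA 1, 28.4% above and 24% below with siRNA 2). On all 4 knockdown arrays DUSP6, ETV4 and HMGA2 lay above and DUSP4, FOSL1 and PHLDA1 below both scramble arrays, 6 of 10 genes against 25.3% of all genes. Both comparisons use the same scramble arrays, and of these 6 genes HMGA2 alone was called for the mean of both siRNAs, against 0.51% of all genes (0.385% higher, 0.126% lower). Because the genes were chosen with earlier results of these data known, these counts are not read as an excess over all genes.

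The log2 difference between the siRNAs does not use the scramble signals. Its limma interval and adjusted p do, because the spread was pooled over all 6 arrays. The median log2 difference, siRNA 1 minus siRNA 2, was 0.13 with 8 of 10 genes above 0, against -0.01 over all genes. The arrays of HMGA2, DUSP5, ETV4, DUSP4 and SPRY2 were higher with siRNA 1 and those of SPRY4 lower without overlap, 6 of 10 genes against 50.7% of all genes (24.2% higher, 26.5% lower). HMGA2 and SPRY4 were the 2 genes past a 1.5-fold difference, against 10% of all genes. The genes past 1.5-fold against scramble numbered 1 with siRNA 1 (HMGA2) and 0 with siRNA 2, against 9.21% and 10.9%. For DUSP6, FOSL1 and PHLDA1, with differences of 0.02, -0.01 and 0.04 on their brightest probe sets, the 95% intervals reach at most 0.31 on the log2 scale. They hold no 1.5-fold difference, but they cover only the spread between duplicate arrays. The intervals of 208893_s_at for DUSP6 (-0.59 to 0.72) and 218000_s_at for PHLDA1 (-1.36 to 0.73) do hold such a difference, and those of their other probe sets do not.

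**Figure D3:**
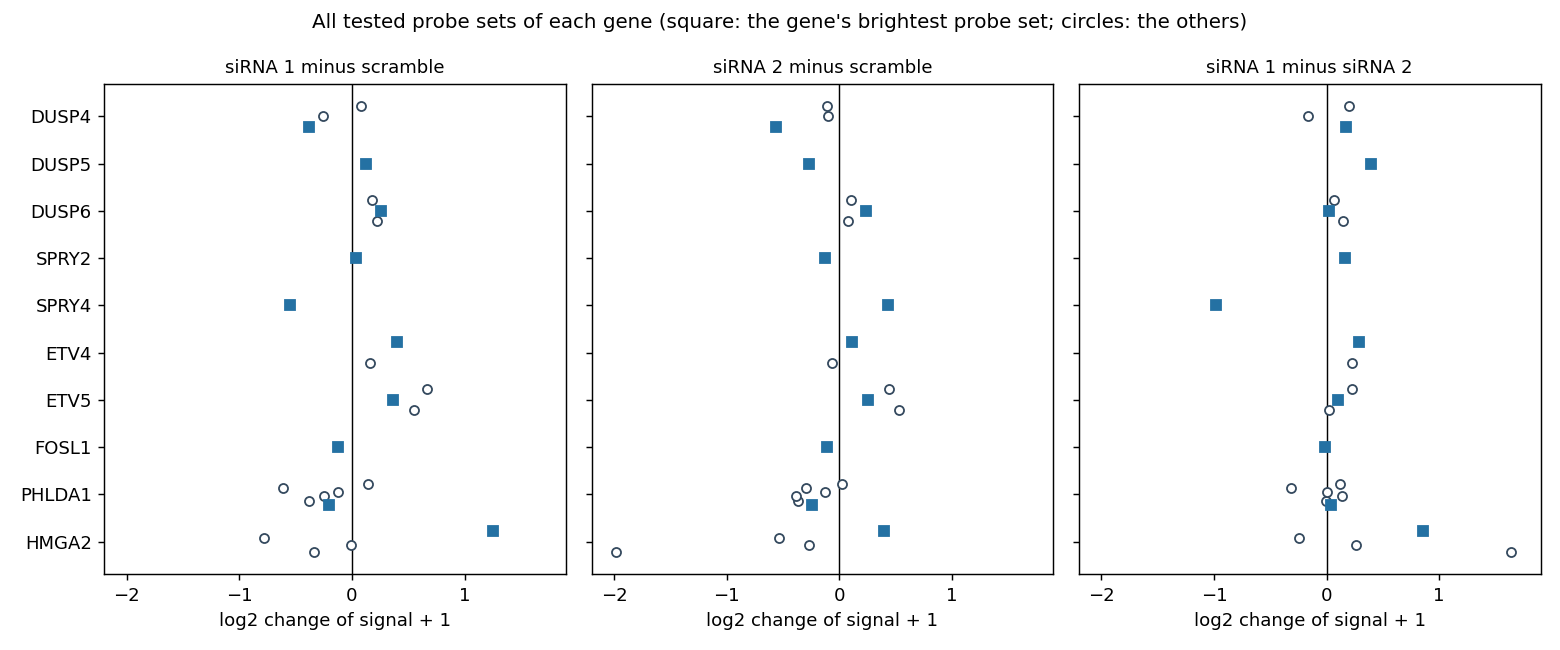
Log2 change of signal + 1 for the 25 tested probe sets of the 10 genes (rows) in the 3 contrasts; squares are the brightest probe set of each gene, circles the others. The HMGA2 square at 1.25 with siRNA 1 stands apart from its 3 circles, which lie between -0.78 and -0.01, while the 3 probe sets of DUSP6 and the 3 of ETV5 each lie on 1 side of 0 with both siRNAs.

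Of the 32 probe sets, 25 passed the filter, and the 7 others belong to HMGA2 (5) and ETV5 (2). Fitted as probe sets, 13 of 25 lay above 0 with siRNA 1 and 10 of 25 with siRNA 2. Limma called 0 of them in each of the 3 contrasts, as it called 0 (0%) of all 29374 probe sets. At an unadjusted p under 0.05 they numbered 5, 5 and 4 with siRNA 1, siRNA 2 and between the siRNAs, against 13%, 16.7% and 15% of all probe sets.

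The other genes of the pathway were described from lists set up for comparison. Of the ERK cascade, from adaptors and RAS to the RSK kinases, 20 genes were tested and limma called 0 with either siRNA or between them, with medians of -0.03, 0.05 and -0.04 on the log2 scale. At an unadjusted p under 0.05 the cascade had 6 genes with siRNA 1, 5 with siRNA 2 and 4 between the siRNAs, against 16.2%, 20.8% and 18.7% of all genes. With an intensity trend limma called 0, 1 and 0, against 2.35%, 3.71% and 2.84% of all genes. RASA2, a GTPase-activating protein that turns RAS off, read 1315 and 1141 with siRNA 1, 1589 and 1450.4 with siRNA 2, and 926 and 982 with scramble. All 4 knockdown arrays lay above scramble (log2 changes 0.36 and 0.67, limma adjusted p = 0.241 and 0.0764). The RAS exchange factors SOS1 (0.31 and 0.47) and SOS2 (0.35 and 0.28) also lay above scramble on all 4 arrays, not called. RPS6KA2, an RSK kinase, and MAPK3, which encodes ERK1, differed between the siRNAs by -0.42 and -0.36 (adjusted p = 0.357 and 0.432).

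Of the other targets and feedback genes 36 were tested and limma called 0 in the 3 contrasts, with medians of -0.02, -0.06 and 0.01. At an unadjusted p under 0.05 they numbered 10, 7 and 10 (all genes 16.2%, 20.8% and 18.7%), and with an intensity trend limma called 4, 0 and 5 (all genes 2.35%, 3.71% and 2.84%). EGR1, an immediate early transcription factor, read 407 and 418 with siRNA 1, 526 and 685 with siRNA 2, and 805 and 611 with scramble. Its siRNA 1 arrays lay below all others (log2 change -0.76, 95% interval -1.27 to -0.26, limma adjusted p = 0.191), and with siRNA 2 it stood at -0.22. ELK1, an ETS factor that ERK phosphorylates, read 289 and 226 with siRNA 1 and 459 and 453 with siRNA 2, against 439 and 411 with scramble. The siRNAs differed by -0.83 for ELK1 (adjusted p = 0.0912). MYC stood at -0.33 and -0.48 and VEGFA, the angiogenic growth factor, at 0.42 and 0.58, each on the same side of scramble on all 4 arrays and not called. ETV1, the third PEA3-type ETS factor, was dim and overlapped scramble, with a difference of 0.88 between the siRNAs (-0.16 to 1.92).

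Of the other MAP kinase phosphatases 8 were tested and limma called 0 in the 3 contrasts, with medians of -0.00, -0.04 and -0.16. At an unadjusted p under 0.05 they numbered 3, 2 and 5 (all genes 16.2%, 20.8% and 18.7%), and with an intensity trend limma called 0, 1 and 2 (all genes 2.35%, 3.71% and 2.84%). DUSP16, a phosphatase of JNK and p38, read 283 and 401 with siRNA 1 and 565 and 706 with siRNA 2, against 450.2 and 437 with scramble. DUSP10, of the same substrate class, read 1422 and 1415 with siRNA 1 and 752 and 926 with siRNA 2, against 1439 and 1237.5 with scramble. The siRNAs thus differed in opposite directions for this pair, by -0.90 (limma adjusted p = 0.139) and 0.77 (adjusted p = 0.101). DUSP9, which acts mainly on ERK, read 218 and 224 with siRNA 1, 163 and 161 with siRNA 2, and 185 and 169 with scramble (difference 0.45, adjusted p = 0.104).

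**Figure D4:**
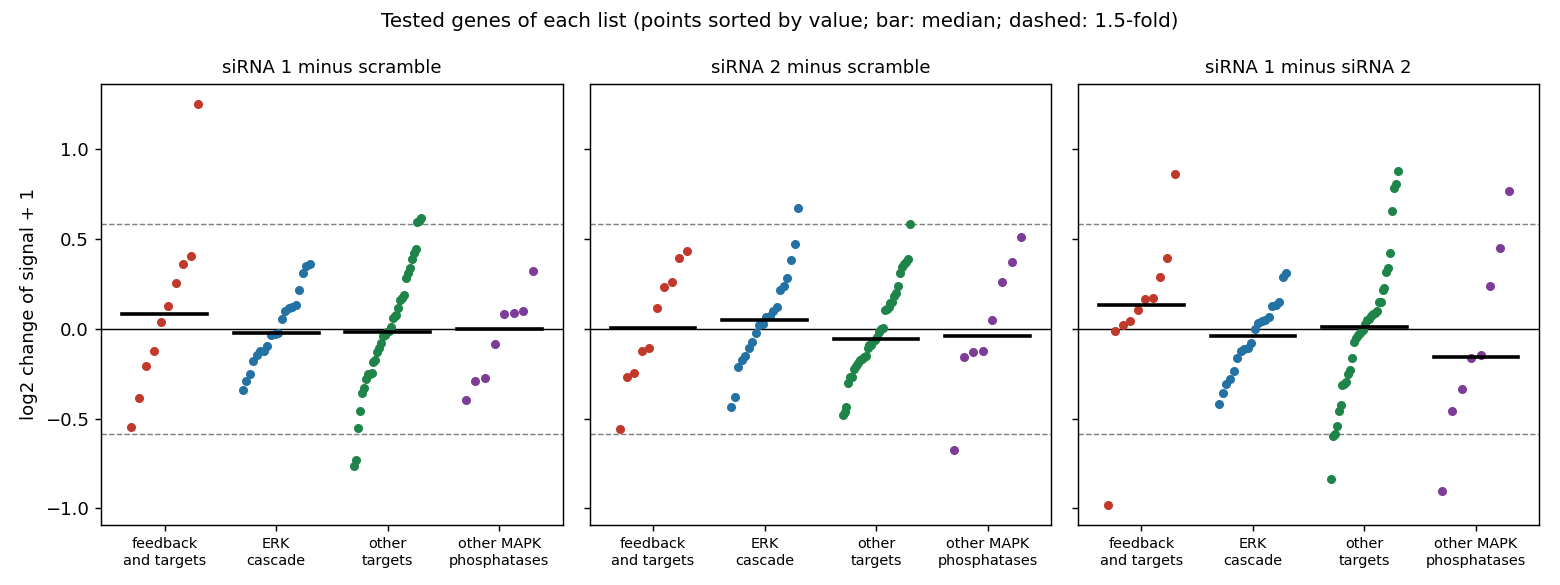
Log2 change of signal + 1 for the tested genes of the 4 lists (10 feedback and target genes, 20 of the ERK cascade, 36 other targets, 8 other MAP kinase phosphatases) in the 3 contrasts; points are genes sorted by value, black bars medians and dashed lines 1.5-fold. The highest point, HMGA2 with siRNA 1 at 1.25, lies apart, and all medians lie between -0.16 and 0.13.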

How the data were processed

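Each probe set has a linear signal intensity in the authors' deposited table, made with Affymetrix Expression Console, per the submitters' processing notes. For its version and algorithm, nothing was given in the sources used here. On that table the mean after trimming 2% from each tail was 500.067 to 500.07 on every array. Arrays were grouped by their titles, 1 of which spells PPP2R2A differently. Probe sets were named by the platform annotation and RefSeq, and genes are represented by the probe set with the highest mean log2 signal. The filter kept 12735 genes and 29374 probe sets. Groups were compared with limma 3.58.1 in R 4.3.3 on log2(signal + 1), a coefficient per group over all 6 arrays, with Benjamini-Hochberg adjustment over all features tested. The fit had 3 residual and 1.72 prior degrees of freedom. A run on simulated data with independent noise checked only the mean size of the estimated changes, which is no check of the calls. Alternatives were quantile normalization, median centring, a pseudocount of 16, other filters, other probe set rules, an intensity trend, the replicate letter as a block, fits of 2 groups and leaving out each array. Duplicates correlated at 0.979 to 0.98, against 0.97 to 0.978 between groups. No pairing of the arrays by the letters A and B was seen over all genes tested (correlations of their deviations between groups -0.0309 to 0.0383). Whether arrays of 1 letter shared a run was not stated, and this measure cannot exclude an effect on some genes. Members and gene lists were chosen with earlier results of these data known. Named besides the 10 genes and PPP2R2A are, per list, the 2 genes with the largest absolute change in each contrast. Intervals are limma's 95% intervals. Figures were drawn with matplotlib 3.10.9.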

Additional observations from a re-analysis of the deposited data

Results flagged for a closer look

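Every array of siRNA 1 lay on one side of both scramble arrays, and every array of siRNA 2 on the other, for 7 of the genes named. ELK1, DUSP9 and DUSP16 were named for changes among the largest of their lists. The count of 7 therefore follows in part from how genes were named and does not measure how common the pattern is. The log2 difference, siRNA 1 minus siRNA 2, was -0.98 for SPRY4, -0.83 for ELK1, 0.45 for DUSP9 and -0.90 for DUSP16. It was 0.65 for PLAUR, -0.60 for ELK4 and 0.78 for CXCL8, which are named because an alternative setting called them. By limma none of these differences was called in the reported fit (adjusted p = 0.0840, 0.0912, 0.104, 0.139, 0.0655, 0.0783 and 0.107, n = 2 per group). Of all 12735 genes tested, 402 had siRNA 1 below and siRNA 2 above scramble in this way, and 424 the reverse.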

How the results depend on the processing

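The replicate block moved no log2 change. With it limma called 0 of the 10 genes and 0 of all 12735 genes tested (HMGA2 with siRNA 1 1.25, adjusted p = 0.158, and for the mean of both siRNAs 0.82, adjusted p = 0.143). PPP2R2A was not called with the block (siRNA 1 -2.02, adjusted p = 0.158, siRNA 2 -1.51, 0.129), without a filter (0.156 and 0.178), with the mean of its probe sets (-1.42, 0.154, and -1.09, 0.160) or with only 2 groups (0.139 and 0.124), nor for siRNA 2 after median centring (0.0629) or on single-transcript probe sets (0.0593). HMGA2 was also not called with siRNA 1 after median centring (1.26, adjusted p = 0.0830), without a filter (1.25, 0.181) and with only the 2 groups in the fit (1.25, 0.139), nor for the mean of both siRNAs after median centring (0.84) or without a filter (0.82). Its sign turned on other probe sets: the mean of its probe sets, most of them dim, gave -0.12, -0.17 and -0.14 with siRNA 1, siRNA 2 and their mean, and single-transcript probe sets, which leave out 208025_s_at, gave -0.01105, -0.27 and -0.14. In each of these settings no member that was tested was called with siRNA 1. Of all genes, 0% were called with siRNA 1 or siRNA 2 without a filter, with the mean of probe sets and with only 2 groups. After median centring the shares were 0.0864% with siRNA 1 and 0.00785% with siRNA 2, and on single-transcript probe sets 0.112% and 0%. The difference between the siRNAs for HMGA2 was called by limma, as the only member, with the filter on all 6 arrays (0.86, adjusted p = 0.0189), where SPRY4 was not tested. It was also called, as 1 of 10 genes, with an intensity trend (0.86, adjusted p = 0.000733). These settings called 2.66% and 2.84% of all genes. The HMGA2 difference was 0.05 under the mean of probe sets (0.966) and 0.26 on single-transcript probe sets (0.736). Of the members' probe sets, an intensity trend called 1, 208025_s_at, with siRNA 1, for the mean and between the siRNAs. In these contrasts it called 472, 493 and 655 of all 29374 probe sets. Without each array in turn HMGA2 lay between 1.18 and 1.33 with siRNA 1 and between 0.75 and 0.90 for the mean. Leaving out an siRNA 2 array cannot move the change with siRNA 1. These fits leave 1 array in a group, so no call is drawn from them. The median change of the 10 genes moved to -0.0398 with siRNA 1 and to -0.12 with siRNA 2 under the mean of probe sets. With siRNA 2 the median was -0.11 with the filter on all 6 arrays, which leaves out SPRY4. It was -0.19 on single-transcript probe sets, which leave out SPRY4 and ETV4. The medians in these settings are thus over fewer genes, and SPRY4 and ETV4 stood above 0 with siRNA 2 in the reported fit (0.43 and 0.12). Under the mean of probe sets the siRNA difference turned for ETV5 (-0.02765) and PHLDA1 (-0.00312). Leaving out 1 array turned uncalled values near 0, with siRNA 2 for ETV5 (-0.01465 to 0.53) and between the siRNAs for DUSP6 (-0.08826 to 0.13), ETV5 (-0.17 to 0.38), FOSL1 (-0.07855 to 0.05455) and PHLDA1 (-0.02076 to 0.10). An intensity trend called 4 other targets with siRNA 1 (CXCL8, EGR1, ELK1, KLF4) and 5 between the siRNAs (CXCL8, ELK1, ELK4, JUNB, PLAUR), 1 cascade gene with siRNA 2 (RASA2), and 1 phosphatase with siRNA 2 (DUSP10) and 2 between the siRNAs (DUSP10, DUSP16). The filter on all 6 arrays, which tests 10868 genes, called 1 (KLF4), 4 (CXCL8, ELK1, ELK4, PLAUR), 1 (RASA2), 1 (DUSP10) and 1 (DUSP10) of these, all named after their values were seen, and it called 2.25%, 3.67% and 2.66% of all genes with siRNA 1, siRNA 2 and between them, against 0.393%, 0.597% and 0.212% without it. Of 300 values of the 10 genes under 10 such settings, 283 kept direction and call. That count is no measure of robustness. The filters, the intensity trend, the replicate block and the fits of 2 groups cannot move a log2 change. Apart from HMGA2 with siRNA 1 and for the mean of both siRNAs, no value was called in the reported fit. The cause of the shifts between settings was not tested. SPRY4 and ETV1 are limited by signal near the array median.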
